A study of Mus musculus with 2 samples.

Results

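The heat shock proteins and chaperonins of the newborn mouse adrenal gland were taken as the genes whose symbol begins with Hspa, Hspb, Hspd, Hspe, Hsph, Hsp90 or Dnaj, together with Cct2 to Cct8 and Tcp1, where the annotation types the gene as protein coding. The rule found 83 genes. Cct6a was added as the 84th member, because the rule asks for the new intron of Cct6a while GENCODE M21 types that gene as a processed transcript and RefSeq types it as protein coding. Of the 84 members 77 had at least 1 read, among 18053 annotated genes with a read, and 74 were read in both libraries.

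Heat shock proteins are chaperones, which bind unfolded or partly folded proteins and hold, fold or unfold them. Hsp70 proteins (Hspa genes) bind short exposed stretches in an ATP-driven cycle; J-domain proteins (Dnaj genes) bring them their clients and start ATP hydrolysis, and Hsp110 proteins (Hsph1, Hspa4) release the nucleotide. Hsp90 proteins act later on kinases and steroid receptors, small heat shock proteins (Hspb genes) hold unfolded proteins without ATP, and the chaperonins Hspd1 with Hspe1 in mitochondria and the Cct ring with Tcp1 in the cytosol enclose a client in a chamber. The adrenal gland makes steroid hormones in its cortex, in part inside mitochondria, and catecholamines in its medulla.

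Long-read RNA sequencing, in which each read is meant to be 1 whole cDNA molecule, was deposited for total RNA of adrenal gland tissue from male mice of strain B6CASTF1/J aged 4 days. There is 1 group, with no treatment or mutation named in the labels, of 2 biological replicates with 1 technical replicate each, so no condition is compared. The labels are not clear on the animals: the tissue of replicate 2 is described as male 04 and that of replicate 1 as male 03, while male 03 stands in the description of either library and they share 1 donor identifier. Whether the libraries come from separate animals cannot be told from this, and every p below measures only how the libraries differ beyond counting error. Since a read is meant to stand for 1 molecule, which was not tested here, levels are given in CPM (counts scaled to 1000000 mouse reads) with no division by length, and genes are compared on that scale.

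The libraries held 688436 mouse reads in replicate 1 and 810818 in replicate 2, so 1 read was worth 1.45 and 1.23 CPM, and 3 reads, the upper limit that a count of 0 allows, 4.36 and 3.70 CPM. All 8 cortex markers and all 7 medulla markers were read in both libraries, with summed levels of 46606 and 31592 CPM for the cortex and 12547 and 9339 CPM for the medulla. Both sums were lower in replicate 2. The libraries differed in markers of other tissues as well. The 10 liver markers gave 511 CPM in replicate 1 against 20122 CPM in replicate 2, and the 8 striated muscle markers 1686 against 3117 CPM. Of 5 red blood cell markers tested, all 5 were higher in replicate 2 and 3 were called by the test described below. None of these liver and muscle markers was at 0 in either library. The 4 brown fat markers gave 1689 and 2199 CPM, while the 4 kidney markers were lower in replicate 2, with 25 reads against 6. In bulk tissue, fewer cells of a type and less RNA per cell cannot be told apart.

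Together the members took 9379 of the mouse reads in replicate 1 and 9142 in replicate 2. That is 1.36% (95% Wilson interval 1.34% to 1.39%) and 1.13% (1.10% to 1.15%), or 12449 ± 1661 CPM (SD, n = 2). Intervals of this kind cover counting error only. The intervals of the libraries did not overlap. The 5 most abundant members, Hspa8, Hsp90ab1, Hspd1, Hspe1 and Hspa5, held 45.2% of the members' reads in replicate 1 and 42.1% in replicate 2, and the first 3 of them were among the 100 most abundant genes of the gland. By family the Hspa genes led with 3307 ± 871 CPM over 13 genes. The Cct genes with Tcp1 followed with 2518 ± 305 CPM over 10 genes. Hspd1 with Hspe1 gave 1796 ± 64.4 CPM and the 3 Hsp90 genes 1658 ± 349 CPM. The 28 Dnajc genes summed to 1551 ± 30.4 CPM, the 4 Dnaja genes to 681 ± 167 CPM, the 13 Dnajb genes to 602 ± 44.9 CPM and the 8 Hspb genes to 238 ± 5.83 CPM. Hspbp1 and Hspbap1, which the pattern also takes in although they are an Hsp70-binding protein and a protein binding Hspb1, summed to 75.5 ± 2.11 CPM, and Hsph1 stood at 23.3 ± 10.2 CPM.

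**Figure D1:**
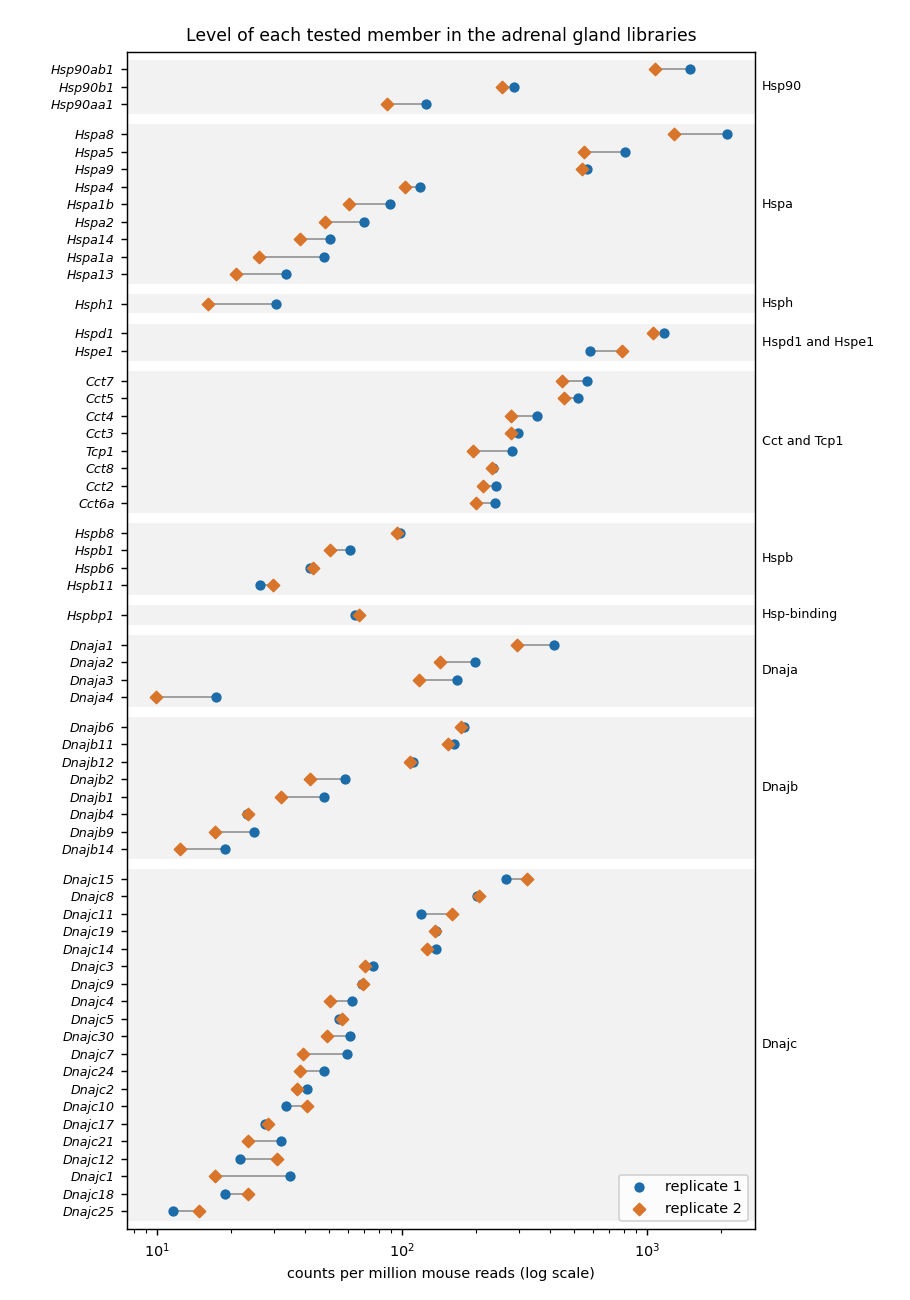
Level of the 60 members with at least 20 reads over both libraries, in CPM on a log axis, by family and then by mean. Circles are replicate 1 and diamonds replicate 2; Hspa8 lies highest at 2108 and 1285 CPM, and Dnaja4 and Dnajc25 lowest among those drawn.

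Among the Hsp90 genes, the constitutive cytosolic Hsp90ab1 was far ahead of its heat-inducible partner Hsp90aa1. Hsp90ab1 had 1028 reads (1493 CPM) in replicate 1 and 868 (1071 CPM) in replicate 2. Hsp90aa1 had 86 reads (125 CPM) and 70 reads (86.3 CPM). The ratio of Hsp90ab1 to Hsp90aa1 reads was 11.95 (95% interval 9.59 to 15.1) in replicate 1 and 12.4 (9.71 to 16.1) in replicate 2, so the libraries gave overlapping intervals. Hsp90b1, the Hsp90 of the endoplasmic reticulum, lay between them with 197 and 206 reads, or 270 ± 22.7 CPM.

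The Hspa family was led by Hspa8, the constitutive cytosolic Hsp70 that also strips clathrin from vesicles (ENSMUSG00000015656.17, mm10 chr9:40800984-40810087, plus strand). It had 1451 reads (2108 CPM) in replicate 1 and 1042 reads (1285 CPM) in replicate 2, and ranked 32 among all annotated genes. Hspa5, the Hsp70 of the endoplasmic reticulum known as BiP (chr2:34771970-34777547), had 558 and 445 reads, or 811 and 549 CPM. Hspa9, the mitochondrial Hsp70 that pulls proteins across the inner membrane, had 392 and 439 reads, or 569 and 541 CPM, which is the smallest gap of these 3. Hspa4, an Hsp110-type exchange factor, stood at 110 ± 10.8 CPM, Hspa14, a ribosome-bound Hsp70 relative, at 44.5 ± 8.91 CPM and Hspa13, a microsomal one, at 27.2 ± 8.80 CPM. Hspa2, best known from male germ cells, still had 48 and 39 reads, or 58.9 ± 15.3 CPM. Hspa12a, Hspa12b, Hspa4l and Hspa1l stayed under 20 reads over both libraries, with between 1 and 15 reads in all.

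The strictly heat-inducible pair Hspa1a and Hspa1b lay far below Hspa8, though Hspa1b (74.5 ± 19.9 CPM) was near the median of the tested members (73.7 CPM) and above that of all tested genes (47.4 CPM). Hspa1b had 61 reads (88.6 CPM) and 49 reads (60.4 CPM), and Hspa1a had 33 reads (47.9 CPM) and 21 reads (25.9 CPM). Hspa8 exceeded Hspa1b by 23.8 times in replicate 1 (18.4 to 31.3) and 21.3 times in replicate 2 (16.0 to 28.9). The genes lie close together on chromosome 17 (chr17:34969190-34972156 and chr17:34956436-34959238, minus strand), and their coding sequences are 99.4% identical, 1915 of 1926 aligned positions. Over whole transcripts the identity falls to 84.5%. Because the coding sequences are so alike, the split of reads between the copies is less certain than their sum. How well reads were assigned to each copy was not tested. Their starts are shown because the copies are alike upstream as well: over the 250 bases before the RefSeq start on GRCm38.p6 they differ at 3 positions, and each holds the 8-letter heat shock element core GAANNTTC, in capitals, 104 bases before the start. The heat shock element is the motif that the transcription factor Hsf1 binds.
Hspa1a, chr17:34972157-34972406, minus strand: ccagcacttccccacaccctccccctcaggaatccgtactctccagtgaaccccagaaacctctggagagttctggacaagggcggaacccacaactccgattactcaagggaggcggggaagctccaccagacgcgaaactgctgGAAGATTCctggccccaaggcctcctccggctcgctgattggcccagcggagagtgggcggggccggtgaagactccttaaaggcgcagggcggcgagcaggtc
Hspa1b, chr17:34959239-34959488, minus strand: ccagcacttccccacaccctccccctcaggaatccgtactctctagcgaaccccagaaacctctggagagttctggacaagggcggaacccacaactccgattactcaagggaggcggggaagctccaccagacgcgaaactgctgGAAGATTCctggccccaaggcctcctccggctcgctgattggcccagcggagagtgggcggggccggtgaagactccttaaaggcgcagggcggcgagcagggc

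RefSeq start windows of 300 bases (250 before and 50 after the start) were at hand for 69 of the 84 members. On either strand GAANNTTC was found for 16 of the 69 (23.2%) against 9.04% of 27025 genes with such windows, and the inverse core TTCNNGAA for 8 (11.6%) against 9.60%. The longer element of 3 units, GAA, TTC and GAA or TTC, GAA and TTC with any 2 bases between units, holds both cores and was found for 4 members, Dnajb6, Hspd1, Hspe1 and Hsph1 (5.80%), against 0.662% of all genes. These 4 differed widely in level, from 1111 ± 78.3 CPM for Hspd1 and 685 ± 143 CPM for Hspe1 to 176 ± 3.37 CPM for Dnajb6 and 23.3 ± 10.2 CPM for Hsph1. A match is a run of letters and was not tested as a binding site, and members with no window were not searched. Hspd1 and Hspe1 overlap at their starts and both strands were searched, so the same element may count for both genes in these shares.

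A second set of starts is shown for the endoplasmic reticulum members. The stress element CCAAT, any 9 bases and CCACG, known from genes induced by unfolded protein in that compartment, was found for 3 of the 69 matched members (4.35%) against 0.137% of all genes, and these 3 were Hspa5, Hsp90b1 and Dnajc3. Capitals mark each match on either strand, and Hsp90b1 holds 2.
Hspa5, chr2:34772020-34772049, plus strand: cttcaCCAATCGGAGGCCTCCACGacgggg
Hsp90b1, chr10:86705510-86705694, minus strand: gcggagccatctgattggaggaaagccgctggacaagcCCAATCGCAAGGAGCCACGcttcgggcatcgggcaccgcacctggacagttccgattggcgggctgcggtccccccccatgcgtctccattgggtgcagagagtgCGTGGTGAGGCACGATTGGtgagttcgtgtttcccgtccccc
Dnajc3, chr14:118937682-118937931, plus strand: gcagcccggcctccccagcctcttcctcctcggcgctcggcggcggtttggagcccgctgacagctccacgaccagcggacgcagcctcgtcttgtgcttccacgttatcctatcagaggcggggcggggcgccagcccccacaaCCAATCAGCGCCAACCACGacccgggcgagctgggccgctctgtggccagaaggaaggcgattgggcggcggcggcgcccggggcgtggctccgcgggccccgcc
The 3 genes differed in level. Hspa5 stood at 680 ± 185 CPM, Hsp90b1 at 270 ± 22.7 CPM and Dnajc3, a J-domain protein of the same compartment, at 72.9 ± 3.70 CPM. All 11 members of the endoplasmic reticulum list were read in both libraries, with sums of 1602 and 1258 CPM in replicates 1 and 2.

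Hspd1 and Hspe1, the mitochondrial chaperonin and the lid that closes its chamber, are neighbours on chromosome 1 (chr1:55077835-55088243, minus strand, and chr1:55088132-55091307, plus strand) that are transcribed away from each other and overlap by 112 bases at their starts. Hspd1 had 803 reads (1166 CPM) in replicate 1 and 856 reads (1056 CPM) in replicate 2. Hspe1 had 402 reads (584 CPM) and 637 reads (786 CPM). The ratio of Hspd1 to Hspe1 reads was 2.00 (95% interval 1.77 to 2.26) in replicate 1 and 1.34 (1.21 to 1.49) in replicate 2, so the intervals did not overlap. The leading Hspe1 model is 774 bases long and that of Hspd1 2423 bases. A stretch of 30 bases before the RefSeq start of Hspe1, which lies within the Hspd1 span, is shown because it holds the long heat shock element, in capitals, as 2 overlapping matches that begin 89 and 84 bases before that start.
Hspe1, chr1:55088056-55088085, plus strand: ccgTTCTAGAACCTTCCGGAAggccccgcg
The 9 mitochondrial members, which also include Hspa9, Dnaja3, Dnajc11, Dnajc15, Dnajc19, Dnajc28 and Dnajc30, had 3072 and 3167 CPM in replicates 1 and 2, or 3120 ± 67.2 CPM.

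All 8 subunits of the Cct ring were read in both libraries, with 1881 reads in replicate 1 and 1867 in replicate 2. The ring carries each subunit at an equal number, so an even split would give 12.5% of the reads to each. Cct7 held 20.7% (95% Wilson interval 18.96% to 22.6%) in replicate 1 and 19.4% (17.7% to 21.3%) in replicate 2. Cct5 held 18.98% (17.3% to 20.8%) and 19.9% (18.1% to 21.7%). In both libraries these 2 intervals lay above all others and overlapped each other. Cct4 held 13.0% and 12.1%, and Cct3 10.8% and 12.1%. Tcp1, which encodes the alpha subunit, held 10.3% and 8.46%, Cct8 8.56% and 10.1%, Cct2 8.83% and 9.27%, and Cct6a 8.77% and 8.68%. The most abundant subunit exceeded the least abundant by 2.42 times in replicate 1 and 2.35 times in replicate 2, and the order of the 4 lowest, Tcp1, Cct8, Cct2 and Cct6a, was not the same in the libraries. Cct6b, a testis form of the zeta subunit, had 1 read in replicate 1 and 0 in replicate 2, and Cct8l1 had 0.

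**Figure D2:**
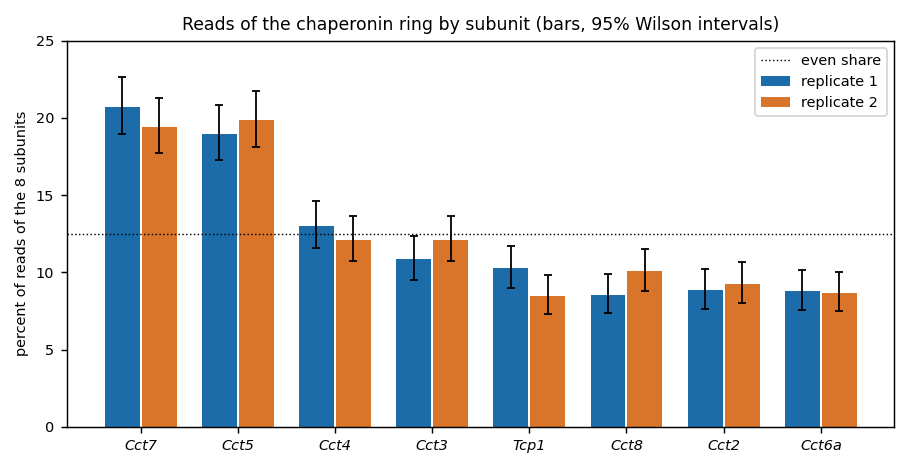
Share of the reads of the 8 ring subunits taken by each subunit, in percent, for replicate 1 (blue) and replicate 2 (orange), with 95% Wilson intervals. Cct7 and Cct5 stand near 20%, above the dotted line of the even share (12.5%), and Tcp1, Cct8, Cct2 and Cct6a stand below it in both libraries.

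Most Cct6a reads, 140 of 165 in replicate 1 and 131 of 162 in replicate 2, used 1 intron that no annotated model has. Cct6a (ENSMUSG00000029447.11, mm10 chr5:129786998-129846371, plus strand) encodes the zeta subunit, but its 7 GENCODE models are all typed as not coding, and only 1 of them, Cct6a-204, was matched in full, by 1 read in each library. The new intron runs from 129794561 to 129844936, over 50376 bases. It was held by 140 of 153 isoform reads in replicate 1 (91.5%, interval 86.0% to 95.0%) and 124 of 138 in replicate 2 (89.9%, 83.7% to 93.9%), isoform reads being those that match a model in full or join splice sites in a new way. A minor new intron, 129794605 to 129844969, was held by 11 (7.19%) and 12 (8.70%) of them, and another, starting at 129794575, by 1 read in replicate 1. No read used an annotated intron across that interval, of which Cct6a-202 has one of 50470 bases. Counting every read that crosses the interval, incomplete ones included, the leading new intron was in 140 of 152 reads and 131 of 143.

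The introns on either side were the annotated ones, so the models differ in the exons that flank the long gap. Joined by the leading intron these exons hold 209 and 136 bases, 345 in all, which is a multiple of 3, and by the minor intron 253 and 103 bases, 356 in all, which is not. Annotated model Cct6a-201 has an exon of 13 bases and an intron of 33 bases. The bases that GENCODE exons cover beside the gap are shown on mm10 so that the borders can be read. The minor intron opens with GT, in capitals, and the leading one closes with AG, in capitals; the 74 bases from 129794501 to 129794574, which hold the start of the leading intron, and the 33 from 129844937 to 129844969 lie in no annotated exon, and their sequence was not used here.
Exon before the gap, chr5:129794441-129794500: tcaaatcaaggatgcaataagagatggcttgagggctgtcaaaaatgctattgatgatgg
Start of the minor intron, chr5:129794585-129794624: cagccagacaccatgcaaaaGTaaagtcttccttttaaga
End of the leading intron, chr5:129844897-129844936: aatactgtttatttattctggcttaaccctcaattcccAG
Exon after the gap, chr5:129844970-129845029: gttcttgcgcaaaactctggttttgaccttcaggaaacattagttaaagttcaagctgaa
With its level of 220 ± 28.2 CPM, Cct6a stood beside Cct2 (227 ± 19.6 CPM) and Cct8 (233 ± 1.41 CPM), both read through coding models.

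Of the 8 small heat shock protein genes, 4 passed 20 reads. Hspb8, which works with the co-chaperone Bag3, was the most abundant at 96.1 ± 1.67 CPM, followed by Hspb1 (Hsp27 in humans) at 55.8 ± 7.38 CPM, Hspb6 at 42.6 ± 0.737 CPM and Hspb11, an intraflagellar transport protein, at 27.9 ± 2.44 CPM. Their reads over the libraries were 67 and 77, 42 and 41, 29 and 35, and 18 and 24. Hspb2, Hspb7 and Hspb3, which are known from muscle, had 16, 5 and 3 reads over both libraries, and Hspb9, known from testis, had 0. Hsph1, the inducible Hsp110, had 21 and 13 reads. Hspbp1, an exchange factor for Hsp70, had 44 and 54 reads, or 65.3 ± 1.90 CPM, and Hspbap1 9 and 6.

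Among the J-domain proteins the 4 Dnaja genes, the closest relatives of bacterial DnaJ, were all lower in CPM in replicate 2. Dnaja1 had 287 reads (417 CPM) and 238 reads (294 CPM), Dnaja2 136 and 115 reads (170 ± 39.4 CPM), the mitochondrial Dnaja3 115 and 95 reads (142 ± 35.3 CPM) and Dnaja4 12 and 8 reads. Of the 13 Dnajb genes 8 passed 20 reads. Dnajb6, which holds back aggregation of polyglutamine proteins, stood at 176 ± 3.37 CPM, Dnajb11, the partner of Hspa5, at 158 ± 6.03 CPM and Dnajb12, of the endoplasmic reticulum membrane, at 109 ± 2.19 CPM. Dnajb2 had 58.1 and 41.9 CPM, the heat-inducible Dnajb1 47.9 and 32.1 CPM, and Dnajb4, Dnajb9 and Dnajb14 between 15.6 and 23.3 CPM.

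The Dnajc family was led by Dnajc15, an inner-membrane protein of mitochondria, with 182 reads (264 CPM) in replicate 1 and 261 reads (322 CPM) in replicate 2. Dnajc8, associated with the spliceosome, followed at 204 ± 2.87 CPM, then Dnajc11, of the mitochondrial cristae complex, at 139 ± 28.3 CPM. After them came Dnajc19, of the mitochondrial import motor, at 136 ± 0.619 CPM and Dnajc14 at 131 ± 7.60 CPM. Of the 82 and 129 Dnajc11 reads, 6 and 45 overlapped the gene without its splicing (genomic reads). Without genomic models Dnajc11 was no longer higher in CPM in replicate 2. With known models alone (60 and 69 reads) it was again higher there, as a share of known-model reads. Dnajc3 (72.9 CPM), Dnajc9, a histone chaperone (68.7 CPM), and Dnajc4 (56.5 CPM) closed the first 8. Thus 3 of the 5 most abundant Dnajc genes act in mitochondria. The synaptic and clathrin list had 43 and 50 reads, of which Dnajc5, the cysteine string protein of secretory vesicles, gave 38 and 46; Dnajc6 and Dnajc13 had 4 and 5 reads over both libraries. The remaining 12 tested Dnajc genes, Dnajc5 among them, lay between 13.2 and 56.0 CPM.

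In all, 17 members had reads but fewer than 20 over both libraries, and 7 had 0 in both: Dnajc5b, Cct8l1, Dnajc5g, Dnajb8, Dnajb13, Hspb9 and Dnajb7. All 7 belong to the list of 11 members known from germ cells or cilia. That list was drawn up with earlier results of these data known, so the overlap is no test of such a trait. Of the other 4 on the list, Hspa2 had 87 reads over both libraries, Dnajb3 7, Cct6b 1 and Hspa1l 1. The limit of 4.36 and 3.70 CPM given above applies to the 7 members with 0 reads. Dnajc22 had 0 reads in replicate 1 and 6 in replicate 2.

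Between the libraries each gene with at least 20 reads in all was compared by its share of mouse reads, using Fisher's exact test (two-sided) with Benjamini-Hochberg adjustment over 8276 genes. A gene was called when its adjusted p was under 0.05 and its log2 ratio, with 0.5 CPM added to each level, was 1 or more in size. Of the 60 members tested 0 were called, while 3.23% of all tested genes were. With adjusted p alone 7 members (11.7%) passed, against 7.93% of all genes, and 16 of the 60 members had an unadjusted p under 0.05, beside 1586 of the 8276 genes. Of these 7, 6 were lower in replicate 2, a side on which 4.1% of all genes passed. Hspa8 was lower by a log2 ratio of -0.71 (counting SE 0.06; Fisher's exact adjusted p = 2.08e-32). For Hspa5 the ratio was -0.56 (SE 0.09; exact adjusted p = 5.49e-08) and for Hsp90ab1 -0.48 (SE 0.07; exact adjusted p = 4.26e-11). Dnaja1 had a ratio of -0.51 (SE 0.13; exact adjusted p = 0.0017), Tcp1 of -0.52 (SE 0.15; exact adjusted p = 0.0132) and Cct7 of -0.34 (SE 0.11; exact adjusted p = 0.0211). Hspe1 alone among the members was higher with adjusted p under 0.05, at 0.43 (SE 0.09; exact adjusted p = 0.000104), where 3.83% of all genes were. Cct7 no longer had an adjusted p under 0.05 with TMM scaling (log2 ratio -0.28, exact adjusted p = 0.0924), with DESeq2 scaling (-0.23, 0.215) or with totals that leave out the liver, red blood cell and striated muscle markers (-0.30, 0.0552). Tcp1 no longer had one with DESeq2 scaling (-0.41, exact adjusted p = 0.0837).

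The direction was shared by most members. The log2 ratio was below 0 for 45 of the 60 (75.0%) and for 58.8% of all tested genes, with medians of -0.19 and -0.10. All 3 Hsp90 and all 4 Dnaja genes lay below 0 under each scaling tried. The 9 tested Hspa genes were all below 0, except Hspa9 under DESeq2 scaling. The 8 ring subunits were all below 0, except Cct8 under TMM scaling and with the marker-free totals, and Cct3 and Cct8 under DESeq2 scaling. With known models alone Cct3 and Cct8, and without genomic models Cct8, lay above 0 as well. The 20 tested Dnajc genes split into 10 below and 10 above 0, and 7 of the 8 Dnajb genes lay below, a count that fell to 5 under TMM and 4 under DESeq2 scaling. DESeq2 scaling raised the median of all genes by 0.11, and 36 of the 60 members then lay below 0, beside 49.5% of all genes.

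Several measures moved with this direction. Genes with a leading known model of up to 1000 bases had a median log2 ratio of 0.20. Medians were -0.11 for genes of over 1000 and up to 2000 bases and -0.23 for those of over 2000 and up to 3000. Genes of over 3000 bases had -0.11. Of the 19 members of over 2000 and up to 3000 bases, Hspa8, Hsp90ab1 and Hspd1 among them, 18 lay below 0. Their median was -0.48, and 1505 of the 2096 genes of that length lay below 0. Of the members of over 1000 and up to 2000 bases 10 of 15 lay below 0 (median -0.08), and of those of over 3000 bases 14 of 21 (median -0.12). Of the 5 members of up to 1000 bases, Hspe1 among them, 3 lay below 0 (median -0.009). Cct6a counts among these 5 by a known model of 411 bases, which was matched by 1 read in each library. Immediate early genes, which respond within minutes to handling and other stimuli, were also lower, from 617 CPM over 9 genes in replicate 1 to 322 CPM in replicate 2; all 5 tested had ratios below 0, 1 of them called, and Fosb had 0 reads. The heat-inducible list of 11 members, which counts Hspa8, gave 4685 and 3694 CPM, and without Hspa8 2577 and 2409 CPM; of its 10 tested members 9 lay below 0. The gland's own markers were lower too: all 8 cortex markers had ratios below 0 (median -0.58), 1 of them called. Of the 7 medulla markers 6 lay below 0 (median -0.38), with none called. Model length, immediate early genes, cortex and medulla markers and the share of other tissues thus differed together with the chaperones. Their part in the result was not tested.

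**Figure D3:**
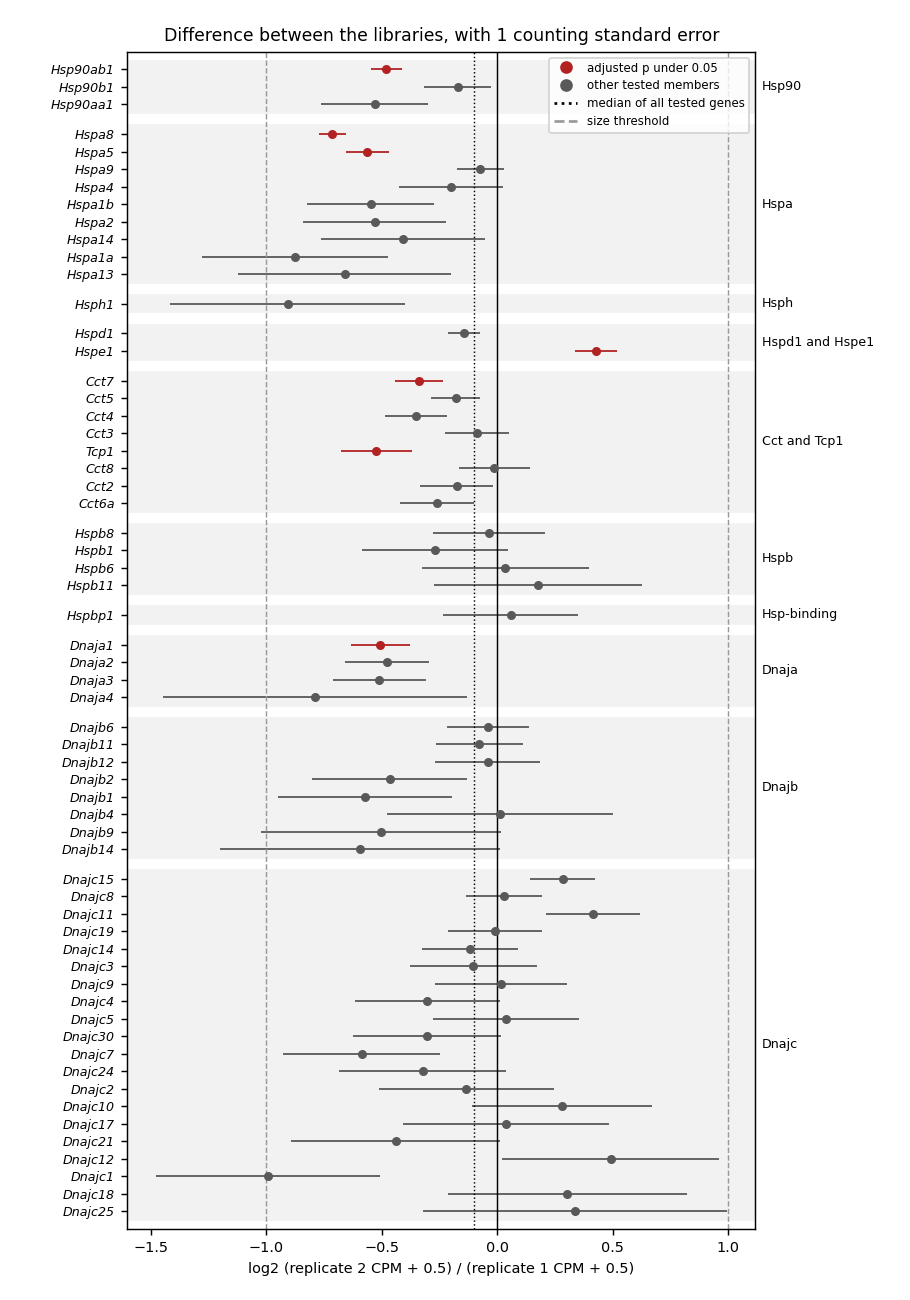
Log2 ratio of CPM in replicate 2 over replicate 1, with 0.5 CPM added, for the 60 tested members by family; bars are 1 counting standard error. Red points are the 7 members with adjusted p under 0.05, the dotted line is the median of all tested genes (-0.10) and dashed lines mark the size of 1 used for a call, which no member with adjusted p under 0.05 reached.

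A chosen list of co-chaperones and related quality-control genes outside the naming rule, shorter than the member list, summed to less. Of 53 such genes 51 were read, with a sum of 7291 ± 697 CPM, and Cryaa and Hsf4 had 0 reads. The most abundant were Lonp1, the mitochondrial matrix protease (999 ± 136 CPM), Stub1, the ubiquitin ligase that works with Hsp70 (531 ± 2.83 CPM), Fkbp4, an Hsp90 partner in steroid receptor complexes (520 ± 127 CPM), and Bag1, an exchange factor for Hsp70 (380 ± 15.5 CPM). Cdc37, Grpel1, Hsbp1 and Trap1 followed, between 245 and 357 CPM. Of the 50 tested, 2 were called, a share near the 3.23% of all tested genes, and both were lower in replicate 2: Chordc1, an Hsp90-binding protein, with 41 and 16 reads (log2 ratio -1.57, Fisher's exact adjusted p = 0.00221) and Ttc4, an Hsp90 co-chaperone, with 41 and 22 reads (-1.12, exact adjusted p = 0.0439). Of the 50, 38 had a log2 ratio below 0, with a median of -0.26, beside 58.8% of all genes and a median of -0.10. Hsf1, the main heat shock transcription factor, had 53 and 43 reads and Bag3 50 and 53.

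Isoforms were compared for the 29 members with at least 50 isoform reads in each library. The leading isoform held a median of 93.9% of a member's isoform reads, against 91.7% over 2440 genes with as many reads, and at least 90% in 22 of the 29 (75.9%) against 55.3% of those genes. Hspb8 was read from 1 model in all its 66 and 74 isoform reads. Hspa8-201 held 98.9% and 99.2%, Hsp90ab1-201 99.0% and 99.1%, and Hspa9-201 98.4% and 98.4%. No member was called for a difference in leading isoform between the libraries (Fisher's exact test, adjusted p under 0.05 and at least 10 points), while 0.41% of all genes were; with adjusted p alone the counts were 0 members and 0.574% of genes. The lowest unadjusted p was that of Hsp90b1-201, with 92.4% and 98.3% (exact p = 0.0429, adjusted p = 0.640), the sole member under 0.05.

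**Figure D4:**
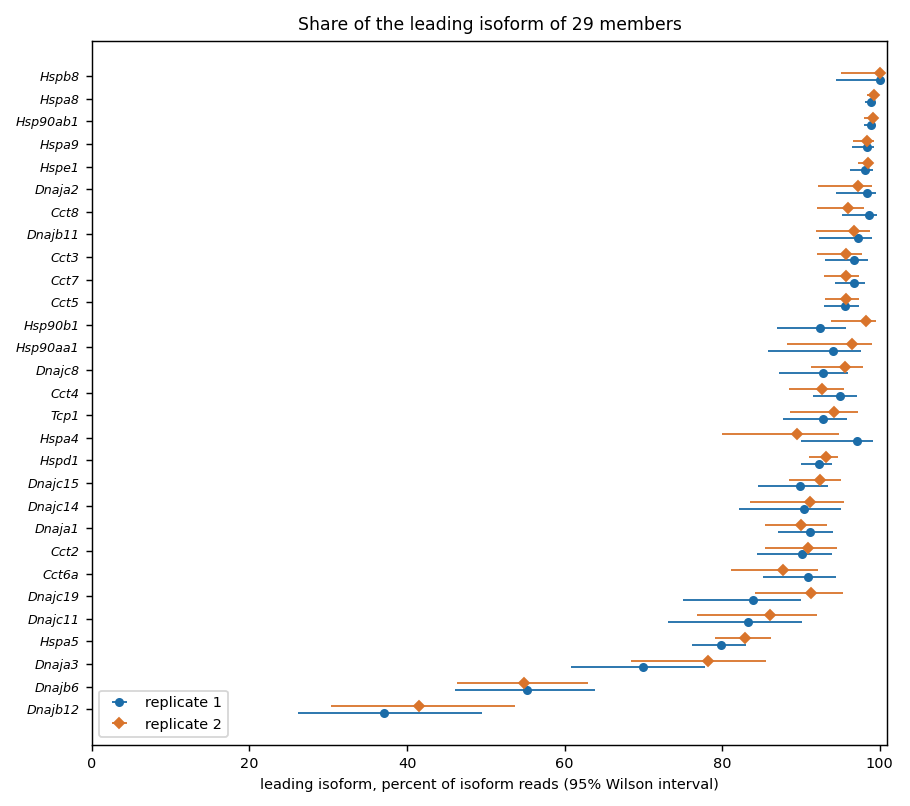
Share of isoform reads held by the leading isoform of each of 29 members, in percent, in replicate 1 (circles) and replicate 2 (diamonds), with 95% Wilson intervals. Most members lie above 90%; Dnajb12 and Dnajb6 lie under 60% in both libraries.

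Among these 29 members Dnajb12 and Dnajb6 were the 2 with a leading isoform under 60%. Dnajb12 was read from 3 coding models: Dnajb12-205 gave 37.1% and 41.5%, Dnajb12-201 27.4% and 38.5%, and Dnajb12-204 32.3% and 20.0% of 62 and 65 isoform reads. The first encodes 378 amino acids and the others 376, so the protein differs little in length. In Dnajb6 the models encode proteins of clearly different length. Dnajb6-203, with 242 codons, held 55.2% and 54.8%, and Dnajb6-201, with 365 codons, 37.1% and 29.6% of 116 and 135 isoform reads. The short and long forms of Dnajb6 are known to differ in where they lie in the cell. Dnaja3 was likewise split, with Dnaja3-202 (453 codons) at 70.0% and 78.2% and Dnaja3-201 (480 codons) at 25.5% and 14.9%. In Hspa5 the minor model Hspa5-202 held 19.3% and 16.6% and encodes the same 655 amino acids as Hspa5-201.

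New isoforms with at least 5 reads in each library numbered 9, in 7 members, and 6 of them, in 5 members, changed only the first intron. One of Hspd1 had 41 of 722 reads (5.68%) in replicate 1 and 33 of 728 (4.53%) in replicate 2; its first intron, chr1:55086942-55087988, is annotated in another model and starts 210 bases from that of Hspd1-201, outside the coding part. Hspbp1 had 2, which differ in the end of the first intron before the coding part: one held 18 of 40 and 20 of 44 reads (45.0% and 45.5%) and led the gene, the other 11 and 10, while the known Hspbp1-201 had 10 and 11. In Dnajc17 a new isoform with the unannotated intron chr2:119180966-119183592 held 7 of 17 and 11 of 21 reads, in place of the annotated intron chr2:119180970-119183598. These introns hold 2627 and 2629 bases, and the bases at the new borders were not checked. The deposited models class this same chain both as a new combination of known splice sites and as having a new splice site. Cct2 (8 and 7 reads), Cct5 (6 and 9) and Dnajc15 (8 and 6) each had one with another first intron, which in Dnajc15 is not annotated (chr14:77856991-77868227). Unlike in Hspd1 and Hspbp1, the first intron of the leading known model of each of these genes lies within its coding span. What the change does to the protein was not examined.

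Reads of the members matched annotated models more often than reads of other genes. Of the members' reads 85.8% and 82.3% matched a known model in full, against 77.1% and 74.0% over all annotated genes. Incomplete matches made up 7.57% and 10.3%, against 9.89% and 11.1%. New combinations of known splice sites made up 2.10% and 2.24%, against 4.85% and 4.91%, and isoforms with a new splice site 3.23% and 3.19%, against 3.56% and 3.40%. Genomic reads, which overlap a gene without its splicing, made up 1.26% and 1.98%, against 4.57% and 6.59%. For these 5 classes the members lay on the same side of all genes in both libraries, but for new splice sites this turned without Hspa8, where the members' share was 3.71% and 3.54%. Cct6a alone gave 152 of the 303 member reads of that class in replicate 1 and 134 of 292 in replicate 2. Known models typed as retained introns held 0.139% and 0.241% of the members' reads, against 1.09% and 1.24%. No test was made, since reads of one gene are not replicates.

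**Figure D5:**
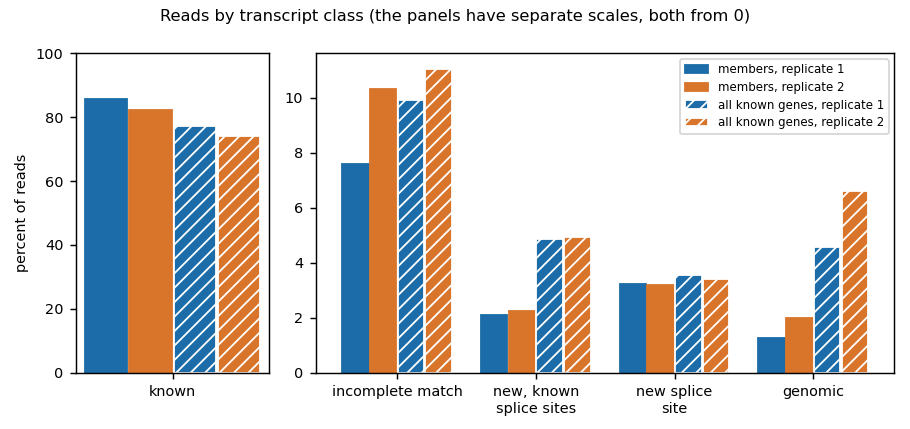
Percent of reads in each transcript class for the members (plain bars) and for all annotated genes (hatched bars), replicate 1 in blue and replicate 2 in orange; the panels have separate scales that both start at 0. In both libraries members have more reads on known models and fewer genomic reads than all genes.

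Pseudogenes named after members and unannotated antisense genes over members took few reads. Copies under other names were not counted. Of 15 processed pseudogenes named after members, Hspd1-ps3 had 1 read and Dnajc19-ps 2, and the others 0. Unannotated antisense genes over the members held 65 reads in replicate 1 and 150 in replicate 2, over 44 members, of which 1 read and 0 reads were spliced. An annotated gene with reads overlapped 29 members on the opposite strand and 6 on the same strand. The assignment of reads there is less certain. Some of these neighbours had more reads than the member, and others fewer. Dnajc14, with 94 and 102 reads, shares 2114 bases with Sarnp (129 and 151 reads) on the same strand.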

How the data were processed

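Long-read counts were analysed for 2 libraries of 1 group. The deposited tables give raw counts of reads per transcript model, made by the authors from alignments to mm10 with GENCODE M21, per the file headers and the notes deposited beside them. The aligner, read filters and tool versions were not given in the sources used here. Tags in the files name TALON, which classes each model. A model is listed only with at least 1 read. Counts were summed per gene over all models, spike-in rows (19290 and 21734 reads) were left out, and CPM was taken over the remaining mouse reads. Splice chains came from the deposited annotation of each library; known models were matched by identifier and new ones by exact introns and strand.

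With 1 library a side, genes and leading isoforms were compared by two-sided Fisher's exact tests (scipy 1.17.1) with Benjamini-Hochberg adjustment over all genes tested. Both tests were run on simulated counts that varied by counting error alone. Such counts hold no other spread between libraries, so false calls from that spread were not checked. Scaling alternatives used edgeR 4.0.16 (TMM) and DESeq2 1.42.0 size factors; other alternatives changed the minimum count (10, 50 or none), the CPM added (0.1 or 1), the models counted, the thresholds and the reads in a denominator, or left out a library. Totals without the liver, red blood cell and striated muscle markers, the counts of members past adjusted p alone under each setting and the count without Hspa8 were chosen after seeing the data. Members, lists and thresholds were chosen with earlier results of these data known.

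Named genes were, per family, all members with at least 20 reads where up to 12 had them and otherwise the 8 most abundant, every member called, members at 0 reads, leading isoforms under 60%, new isoforms with at least 5 reads in each library, and Cct6a. Some members with fewer reads are named as well, after their values were seen. Promoter sequences are from RefSeq (GRCm38.p6), and Cct6a sequences from GENCODE M21 transcripts. The value of 1 marker is not reported here.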

Additional observations from a re-analysis of the deposited data

How the results depend on the processing

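No paired analysis was possible because the series has a single group and its replicate numbers pair no samples. The count of members called stayed at 0 under every alternative except with no size threshold, where it was 7; all genes called were 656 with no size threshold and 161 with a minimum of 50 reads, against 267. Of those 267, 70.0% were higher in replicate 2, and 82.4% of the 256 called with DESeq2 size factors. The members past adjusted p alone numbered 6 with TMM, 5 with DESeq2 size factors, 6 with marker-free totals and 6 without Hspa8, all among the 7. Of 580 alternative log2 ratios of tested members 28 changed sign, none of them past the threshold at either setting, and 4 lost it, those of Cct7 and Tcp1. Changing the minimum count or the CPM added cannot change a sign. All 28 therefore come from the scaling, the marker-free totals or the models counted.

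With known models alone the summed level was 14502 CPM for all members, 2150 for Hspd1 and Hspe1, 308 for Hspb, 699.9 for Dnajb and 1735 for Dnajc. Without genomic models Hspd1 and Hspe1 summed to 1895 and Hspb to 247 CPM, and with spike-ins in the total Hspb to 232 and Dnajc to 1509.7 CPM.

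Isoform calls over all genes numbered 10, but 4 with a minimum of 100 reads, 6 with 20 points and 75 with incomplete matches in the denominator, with 0 members each time. The leading Cct6a intron held 90.7% of isoform reads, 91.9% of reads crossing the interval and 82.9% of all reads of the gene; any new intron there held 98.9%, 100% and 90.2%. Without Hspa8 new combinations made up 2.46% and new splice sites 3.63% of the members' reads, the latter above the 3.48% of all genes. Of 115 alternative leading isoform shares 47 moved by more than the spread between libraries. With incomplete matches added, 24 of the 29 members moved. Shares that leave out a library cannot move by this measure, so all 47 come from added incomplete matches or known models alone. Depth limits the 24 members under 20 reads or at 0, for which no difference was tested, and members near 20 reads, such as Dnaja4 with a counting SE of 0.66 on the log2 scale.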

Other observations

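Some members with too few reads for the isoform comparison were split between models, and are named here after their values were seen. Dnajc5, the cysteine string protein, was read from Dnajc5-204, a model typed for nonsense-mediated decay, in 10 of 26 isoform reads in replicate 1 and 11 of 33 in replicate 2, beside 9 and 19 reads of the coding Dnajc5-201. Dnajc4 gave 14 of 37 and 11 of 33 reads to its leading model Dnajc4-201. Dnajb2 gave 12 of 25 and 7 of 21 reads to Dnajb2-210 and 7 and 3 to Dnajb2-207. Dnajc24 gave 26 of 32 and 20 of 31 reads to Dnajc24-201 and 3 and 6 to Dnajc24-202, which is typed as not coding. In contrast Dnajc30, a gene of 1 exon, gave all 40 and 40 isoform reads to 1 model, and so did Hspa1b with 61 and 49 and Dnajb1 with 32 and 24.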
